A study of Mus musculus with 6 samples.

Results

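The genes described here are 53 non-Hox homeobox and paired-box genes, listed by name from the Pax, Dlx, Lhx, sine oculis (Six2 to Six6), Irx, Msx, Otx, Emx, En, Gbx, Nkx and Meis families, out of 55450 genes in the GENCODE vM21 annotation of mm10. They were measured by CAGE, which counts capped RNA 5′ ends at single positions, in the nuclear RNA of 2 mouse cell lines with 3 libraries each. R08, a line of mouse embryonic stem cells (mESCs), was cultured without feeders in serum with leukemia inhibitory factor. Oli-neu, an established mouse line that stands for oligodendrocyte progenitor cells (mOPCs), was expanded with N2 supplement, thyroid hormones, basic fibroblast growth factor and platelet-derived growth factor-BB. Each cell type is thus represented by 1 line, and nothing in the labels says that the libraries of a line came from separate cultures, so p-values measure the spread between these libraries, which may be technical. For every gene, the tags within 500 bp of any annotated 5′ end on its strand were summed and scaled to a library of 1000000 tags (CPM).

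Libraries held between 16657021 and 40928704 tags, so that 1 tag was worth between 0.0244 and 0.0600 CPM. In the files, the 3 libraries of a line carry the same name code and the code differs between the lines, so a difference between preparations cannot be told apart from a difference between mESCs and mOPCs. In a list of 8 pluripotency markers all were higher in mESCs, and Pou5f1, Nanog, Zfp42, Dppa5a and Tdgf1 had no tag in mOPCs. Of 9 oligodendrocyte progenitor markers 8 were higher in mOPCs, while Nkx2-2, a homeobox gene of that lineage, had 6 tags over the mESC libraries and none over the mOPC libraries. Some markers of other cells were present. The summed level of 5 neuronal markers was 279 to 305 CPM in mESCs, nearly all of it in Stmn2. In mOPCs it was 81.3 to 102 CPM, nearly all in Syt1, while Stmn2, Snap25 and Rbfox3 had no tag there. The 4 primitive endoderm markers summed to 26.8 to 31.3 CPM in mESCs against 7.84 to 8.64 CPM in mOPCs, with Gata6 and Sox17 at 0 in mOPCs. Nearly all of that mOPC sum was Pdgfra, which is also 1 of the 9 oligodendrocyte progenitor markers. The 4 Schwann and neural crest markers summed to 4.18 to 5.52 CPM in mESCs and to 16.1 to 17.5 CPM in mOPCs, with Foxd3 at 0 in mOPCs and Tfap2b at 0 in mESCs. The 5 astrocyte markers summed to 78.7 to 93.5 CPM in mESCs, most of it Gja1. In mOPCs they summed to 14.5 to 16.0 CPM, most of it Slc1a2, which the paper lists as an mOPC marker, and Aqp4 was at 0. The 5 fibroblast markers summed to 3.06 to 3.18 CPM in mESCs, with Col3a1 and Dcn at 0, and to 9.67 to 12.4 CPM in mOPCs, with Col1a2 at 0. The 4 microglial markers stayed at or under 0.139 CPM in sum in every library, with Cx3cr1 and Ptprc at 0 throughout, and the 4 endothelial markers summed to 1.57 to 2.22 CPM in mESCs and at most 0.0912 CPM in mOPCs, where Pecam1 and Kdr were at 0. The part of such cells in the levels below was not tested, and a change in their number cannot be told apart from a change in RNA per cell.

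Homeobox and paired-box genes encode DNA-binding proteins that give regions of the embryo their identity. In the neural plate, Otx and Gbx genes meet at the border of midbrain and hindbrain, which En and Pax2, Pax5 and Pax8 then pattern, while Emx, Lhx, Dlx and sine oculis genes mark parts of the forebrain, eye and ventral telencephalon. Msx, Pax3 and Pax7 act in the dorsal neural tube and its crest, Nkx genes in ventral neural tissue and in the foregut and heart, Irx genes in broad domains of the neural plate, and Meis proteins pair with Pbx proteins as cofactors of Hox proteins.

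Silent, low and used promoters were distinguished by simple limits. A promoter was in use in a line when every library reached 1 CPM, silent when every library stayed below 0.1 CPM, and low otherwise. Of the 53 genes, 14 were in use in mESCs and 20 in mOPCs, where 57.0% and 52.7% of all 21951 protein-coding genes were in use. Silent promoters numbered 11 in mESCs and 28 in mOPCs, against 29.5% and 39.6% of all protein-coding genes. The limit for silence corresponds to fewer than 2 tags in the smallest mESC library. With the same limits on the mean of the 3 libraries, a choice made after the data were seen, 19 promoters were silent in mESCs and 29 in mOPCs. Counted library by library, 15, 14 and 15 of the genes reached 1 CPM in mESCs and 20, 21 and 20 in mOPCs. These counts separated the lines, with p = 0.1 in an exact permutation test (two-sided), which cannot go lower with 3 libraries against 3. The summed level of the 53 genes was 129, 123 and 119 CPM in mESCs and 283, 302 and 303 CPM in mOPCs, with the same exact p of 0.1.

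The lines shared few of these promoters. In both lines 8 were in use (Pax6, Six4, Six5, Irx2, Msx1, En2, Meis1 and Meis3), or 15.1% of the 53, where 48.3% of all protein-coding genes were. A further 12 were in use in mOPCs only, 22.6% against 4.4% of all protein-coding genes. In mESCs only, 6 were in use, 11.3% against 8.75%, and each of these 6 was silent in mOPCs. Of the 12 used in mOPCs only, Pax2 was silent in mESCs and the other 11 were low there. The remaining 27 genes were used in neither line, 50.9% against 38.6% of all protein-coding genes. Over all tested genes, 91.0% passed the threshold of edgeR, 42.1% higher in mOPCs and 48.9% higher in mESCs, so a call by itself says little and the sizes of the changes are given below. Of the 53 genes, 33 had enough tags to be tested, and all 33 passed, 19 higher in mOPCs and 14 higher in mESCs. A change of at least 2 on the log2 scale was fitted for 29 of the 33 and for 44.7% of all tested genes, and the median absolute log2 change was 5.47 over these 33 and 1.71 over all 18490 tested genes. A gene that enters the test only through the line in which it is high had to differ, so these figures describe the genes and are not support for a change of the families. For 31 of the 33, the adjusted p was at most 6.64e-07 (edgeR quasi-likelihood test, Benjamini-Hochberg over all tested genes). The other two, Pax6 and En2, are treated separately below.

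**Figure D1:**
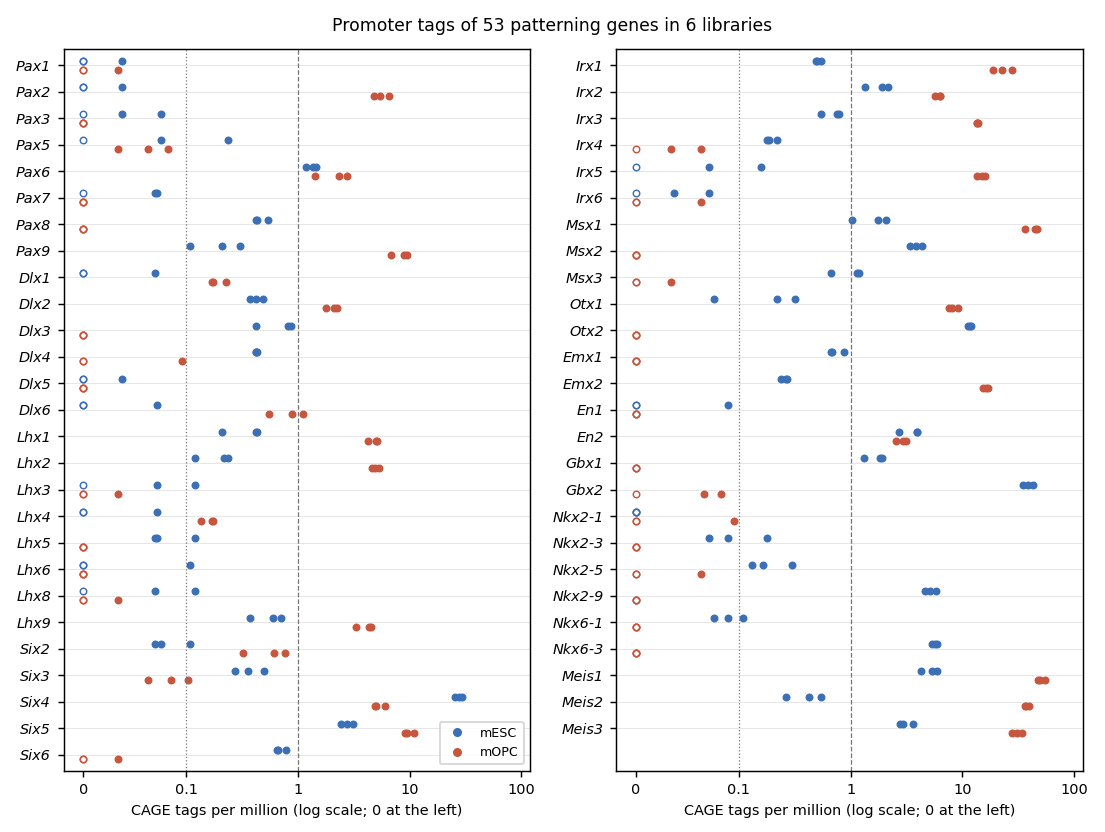
Level of each of the 53 genes in each of the 6 libraries, in CPM on a log axis, with mESC libraries in blue and mOPC libraries in red. Open circles at the left are libraries with 0 tags, and the dotted and dashed lines mark 0.1 and 1 CPM; the libraries of the lines do not overlap for 40 of the genes, where 65.3% of all protein-coding genes do not.

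The starts themselves are shown for 9 genes whose most used start lies in a RefSeq promoter window (GRCm38.p6, the assembly of mm10). They were chosen after their values were seen, to show the mESC starts of the genes with the largest fitted falls, examples of 1 start shared by both lines, and a start that differs. Each line gives 60 bases before the most used position and 20 from it on, with 2 capitals at the position where most tags start and at the next base. RefSeq promoters were matched for 40 of the 53 genes. The first 4 are used in mESCs, the next 4 have the same most used position in both lines, and the last pair gives the most used starts of Meis3, which lie 20 bp apart.
Otx2, mESC (chr14:48662730-48662809, minus strand): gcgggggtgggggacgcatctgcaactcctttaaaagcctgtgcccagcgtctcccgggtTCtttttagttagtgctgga
Gbx2, mESC (chr1:89931142-89931221, minus strand): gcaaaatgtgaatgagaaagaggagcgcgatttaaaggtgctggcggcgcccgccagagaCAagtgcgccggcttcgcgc
Nkx2-9, mESC (chr12:56613297-56613376, minus strand): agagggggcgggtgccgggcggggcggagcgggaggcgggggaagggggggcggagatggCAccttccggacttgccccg
Msx2, mESC (chr13:53472818-53472897, minus strand): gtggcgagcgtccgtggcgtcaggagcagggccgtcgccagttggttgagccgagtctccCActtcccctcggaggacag
Msx1, both lines (chr5:37824564-37824643, minus strand): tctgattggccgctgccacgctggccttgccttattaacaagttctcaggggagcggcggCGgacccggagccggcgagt
Meis1, both lines (chr11:19018948-19019027, minus strand): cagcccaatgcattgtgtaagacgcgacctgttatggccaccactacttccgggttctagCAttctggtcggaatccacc
Lhx1, both lines (chr11:84525503-84525582, minus strand): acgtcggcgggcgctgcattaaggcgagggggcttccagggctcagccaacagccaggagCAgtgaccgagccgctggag
Lhx9, both lines (chr1:138842426-138842505, minus strand): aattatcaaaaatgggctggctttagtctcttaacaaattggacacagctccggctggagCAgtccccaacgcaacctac
Meis3, mESC (chr7:16175325-16175404, plus strand): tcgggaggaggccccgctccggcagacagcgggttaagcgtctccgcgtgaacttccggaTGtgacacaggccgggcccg
Meis3, mOPC (chr7:16175345-16175424, plus strand): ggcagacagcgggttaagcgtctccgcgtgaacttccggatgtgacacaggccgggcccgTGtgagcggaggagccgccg

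The capitals read a pyrimidine followed by a purine in every line shown but that of Otx2, where they read TC. Of the starts with a sequence that are not shown, those of Irx2 in mESCs (CC) and Six2 in mOPCs (GA) also lacked such a pair. Mammalian transcription usually starts at the purine of such a pair. Over all RefSeq promoters with at least 20 tags, the pair formed by the most used position and the next base was of this kind in 86.8% of 12534 promoters in mESCs and in 87.2% of 11529 in mOPCs. The pair formed by the base before and the most used position was of this kind in 1.41% and 1.46%. The deposited positions thus lay mostly 1 base before the purine, for a cause that was not tested. The 51 RefSeq promoters of the 40 genes, each 300 bases long, were rich in CG pairs, with a median of 17 against 7 over all 32851 promoters and a median GC content of 60% against 52.7%. The motif GGGCGG, searched on both strands, was found in 30 of the 51 (58.8%) and in 35.7% of all promoters, and the sequence of Nkx2-9 above holds it. The letters TATAAA, on either strand, were found in 5 of the 51 (9.80%) and in 13.6% of all promoters, and TAATTA, the core that many homeodomains bind, in 4 (7.84%) and in 5.29%. A match is a description of the letters and not of a bound site.

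Of the genes that set the midbrain and hindbrain border, Gbx2 and Otx2 were used only in mESCs. Gbx2, a repressor of anterior fate on the hindbrain side (chromosome 1, 89927956 to 89931179, minus strand), had 43.2, 38.9 and 34.8 CPM in the mESC libraries and 0, 0.0693 and 0.0489 CPM in the mOPC libraries, where it had 4 tags in all. It was the highest of the 53 genes in mESCs and fell by 9.69 ± 0.237 on the log2 scale in mOPCs. The paper lists Gbx2 among its marker genes of mESCs. The size depended on the window, since 25 mOPC tags lay inside the gene beyond 500 bp: the value was -6.97 with tags within 1000 bp and -5.97 over the gene body. Here and below, log2 changes are mOPCs over mESCs, given with their SE, with 3 libraries a line. That SE comes from the F statistic of the test. It can be smaller than the counting error where a line had few tags, as Gbx2 had in mOPCs. Otx2, which specifies head and midbrain and is also needed by the pluripotent epiblast (chromosome 14, 48657677 to 48673819, minus strand), had 12.0, 11.8 and 11.3 CPM in mESCs and 0 tags in all 3 mOPC libraries. A count of 0 in 91692553 mOPC tags allows a level of up to 0.0327 CPM, so that Otx2 was at least 361-fold lower in mOPCs (3 tags over the group, counting error only). Of its mESC tags, 1.86% lay in exons of the overlapping gene Gm49154. Its paralog Otx1 (chromosome 11, 21994764 to 22002897, minus strand) showed the opposite order, with 0.317, 0.0600 and 0.217 CPM in mESCs and 8.07, 7.59 and 9.24 CPM in mOPCs, a log2 change of 5.11 ± 0.252, or 5.81 without mESC replicate 1, which held 12 of its 17 mESC tags. Gbx1, the paralog of Gbx2 that acts in the forebrain and spinal cord (chromosome 5, 24502757 to 24527202, minus strand), had 1.85, 1.32 and 1.90 CPM in mESCs and no tag in mOPCs, at least 53.2-fold lower near its 5′ end, while over the gene body the fitted log2 change was -4.38.

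Pax2, which acts early at this border and in the optic stalk and kidney (chromosome 19, 44756045 to 44837871, plus strand), was at 1 tag over all mESC libraries and at 6.57, 5.41 and 4.81 CPM in mOPCs. Its pooled ratio was 396-fold (95% exact interval from 70.7 to 15650), which rests on that 1 tag. Inside the gene beyond 500 bp lay a further 24, 8 and 18 tags in mESCs and 207, 284 and 388 in mOPCs, and over the gene body the log2 change was 4.28. Its relatives did not follow it: Pax5 (chromosome 4, 44524757 to 44710487, minus strand) had 9, 1 and 0 tags in mESCs and 1, 2 and 1 in mOPCs, and Pax8, known from thyroid and kidney (chromosome 2, 24420560 to 24475599, minus strand), 16, 9 and 8 and 0 in every mOPC library. Both also held tags farther inside the gene, 147 for Pax5 and 129 for Pax8 over the mESC libraries. Within 500 bp of its 5′ end, En1 had 3 tags in mESCs, all in 1 library, and none in mOPCs. Farther inside the gene it had 5 tags in each mESC library.

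En2, which patterns midbrain and cerebellum (chromosome 5, 28165694 to 28172166, plus strand), was in use in both lines, at 3.93, 2.70 and 3.96 CPM in mESCs and 3.10, 2.91 and 2.56 CPM in mOPCs. These values overlap. The fitted change was -0.38 ± 0.175 (SE; edgeR, adjusted p = 0.0400), and its direction depended on the window: with tags within 100 bp the value was 1.17 (edgeR, adjusted p = 1.77e-05), higher in mOPCs. A single position 330 bp upstream of the annotated 5′ end took 56.2% of the En2 tags in the mESC libraries and 12.8% in the mOPC libraries. En2 passed the threshold neither with DESeq2 nor without mESC replicate 1, mESC replicate 3, mOPC replicate 2 or mOPC replicate 3 (log2 values between -0.35 and -0.26 without these libraries). Its call was also lost with scaling to the library total, without the filter on low counts and over the gene body. The same held with 5′ ends of protein-coding transcripts only, with thinned libraries and with the replicate number as a block. Over all alternatives its adjusted p in edgeR or DESeq2 ran from 1.77e-05 to 0.450.

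Among the genes of forebrain and eye, Emx2, Lhx2, Dlx2 and Otx1 were used in mOPCs only. Emx2, required in dorsal forebrain and in the urogenital tract (chromosome 19, 59458372 to 59465357, plus strand), had 0.264, 0.240 and 0.271 CPM in mESCs and 16.2, 17.0 and 15.3 CPM in mOPCs, a log2 change of 5.90 ± 0.212, or 59.6-fold. With tags within 100 bp its log2 change was 8.78. Emx1 (chromosome 6, 85187438 to 85204462, plus strand) ran the other way at a lower level, with 0.686, 0.660 and 0.868 CPM in mESCs and 0 tags in mOPCs, at least 22.2-fold lower near its 5′ ends, with a fitted log2 change of -4.06 over the gene body. Both paralog pairs, Otx and Emx, thus had one member in use in only 1 line and the other member higher in the other line. Lhx2, a selector of cortex and eye (chromosome 2, 38339281 to 38369733, plus strand), had 0.237, 0.120 and 0.217 CPM in mESCs and 4.61, 5.34 and 4.91 CPM in mOPCs (log2 change 4.54 ± 0.274, or 7.11 with tags within 100 bp).

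The Dlx genes, which specify ventral forebrain interneurons, branchial arches and limbs, are arranged in convergent pairs. Dlx2 (chromosome 2, 71543408 to 71546754, minus strand) was at 0.369, 0.420 and 0.488 CPM in mESCs and 2.23, 2.12 and 1.78 CPM in mOPCs, a log2 change of 2.24 ± 0.286. Its neighbour Dlx1 had 2, 0 and 0 tags in mESCs and 5, 5 and 7 in mOPCs, a pooled ratio of 6.76-fold (95% exact interval from 1.61 to 60.4). Dlx6 had 1 tag in mESCs and 0.547, 1.11 and 0.880 CPM in mOPCs, a pooled ratio of 63.7-fold (95% exact interval from 11.1 to 2546), with 95% of the mOPC tags upstream of the nearest annotated 5′ end, while its neighbour Dlx5 had 1 tag in mESCs and none in mOPCs. In the pair of Dlx3 and Dlx4 both were low in mESCs and silent in mOPCs: Dlx3, known from placenta and epidermis, had 0.818, 0.420 and 0.868 CPM in mESCs and no tag in mOPCs (at least 22.6-fold lower), and Dlx4 had a pooled ratio of 19.5-fold (95% exact interval from 4.96 to 168). The pairs therefore differed in direction, Dlx1 and Dlx2 having more tags in mOPCs and Dlx3 and Dlx4 more in mESCs.

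Pax6, a selector of eye and dorsal forebrain (chromosome 2, 105668900 to 105697364, plus strand), stayed near the limit of use in both lines, at 1.37, 1.44 and 1.19 CPM in mESCs and 1.41, 2.74 and 2.32 CPM in mOPCs. The libraries overlap, and the fitted change was 0.69 ± 0.227 (SE; edgeR, adjusted p = 0.00443, against 0.0678 with DESeq2). Within 100 bp of annotated 5′ ends the value was -0.04 (edgeR, adjusted p = 0.882), and over all alternatives the adjusted p of Pax6 ran from 0.000202 to 0.882. Six3 and Six6, which act in forebrain and eye, were low in mESCs. Six3 had 19, 6 and 5 tags in mESCs and 1, 3 and 3 in mOPCs. Six6 had 0.660, 0.780 and 0.651 CPM in mESCs and 1 tag in mOPCs, a pooled ratio of 62.8-fold (95% exact interval from 10.8 to 2531). Nkx2-1, Lhx6 and Lhx8, which together specify the medial ganglionic eminence, had at most 2 tags in any library within 500 bp of their 5′ ends. Lhx6 had a further 229 mESC tags farther inside the gene, which belong to no annotated 5′ end. No use of an annotated promoter of these 3 genes was detectable at this depth beyond single tags.

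**Figure D2:**
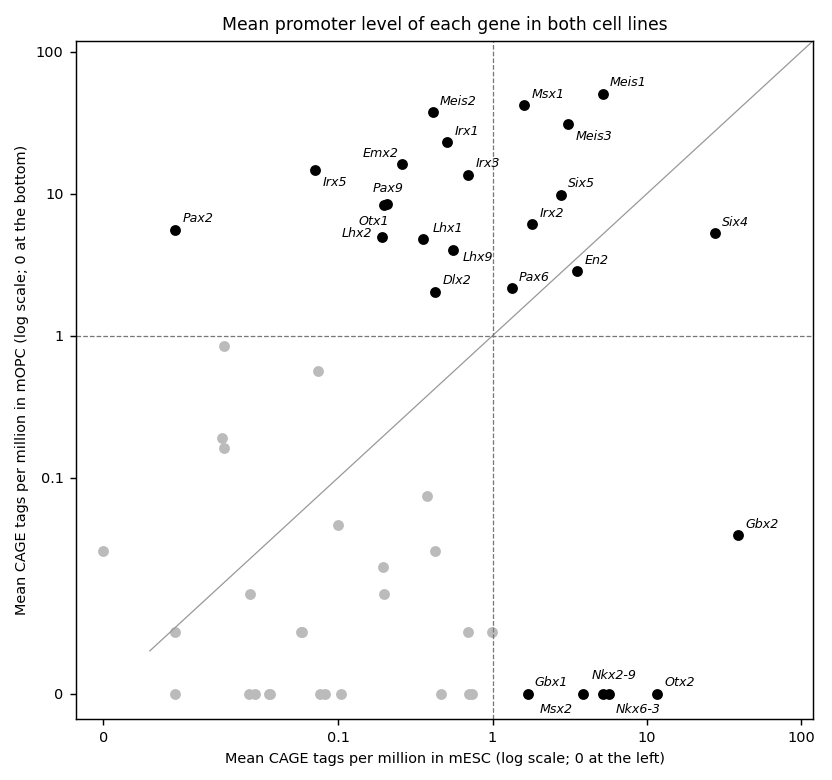
Mean level of each gene over the 3 mESC libraries (horizontal) and the 3 mOPC libraries (vertical), in CPM on log axes with 0 at the edge. Black points are the 26 genes in use in at least 1 line and grey points the other 27, the dashed lines mark 1 CPM and the diagonal equal levels; only En2 and Pax6 lie near the diagonal among the black points.

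The LIM homeobox genes of spinal and hindbrain neurons split as well. Lhx1, needed for head organizer, kidney and motor and interneurons (chromosome 11, 84518284 to 84525535, minus strand), rose from 0.211, 0.420 and 0.434 CPM in mESCs to 5.11, 5.03 and 4.28 CPM in mOPCs (log2 change 3.85 ± 0.258). Lhx9, of dorsal interneurons, thalamus and gonad (chromosome 1, 138825186 to 138848577, minus strand), was at 0.369, 0.600 and 0.706 CPM in mESCs and 3.28, 4.51 and 4.30 CPM in mOPCs (log2 change 2.95 ± 0.245, or 3.80 with tags within 100 bp). In contrast, Lhx3 and Lhx5 had at most 2 tags in any library within 500 bp of their 5′ ends. Lhx4 had 0, 0 and 1 tags in mESCs and 3, 5 and 7 in mOPCs, all of the latter in its downstream start region, and a pooled ratio of 11.9-fold (95% exact interval from 1.84 to 502).

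Of the dorsal genes, Msx1, a target of BMP signalling in neural crest and limb (chromosome 5, 37820485 to 37824583, minus strand), was in use in both lines and much higher in mOPCs. It had 2.06, 1.74 and 1.03 CPM in mESCs and 36.3, 44.4 and 46.5 CPM in mOPCs, a log2 change of 4.61 ± 0.152. Its paralogs showed the reverse. Msx2 (chromosome 13, 53466884 to 53473074, minus strand) had 3.88, 4.38 and 3.37 CPM in mESCs and no tag in mOPCs, at least 118-fold lower, and Msx3, of the dorsal spinal cord (chromosome 7, 140046157 to 140049089, minus strand), 1.19, 0.660 and 1.14 CPM in mESCs and 1 tag in mOPCs, a pooled ratio of 96.8-fold (95% exact interval from 16.9 to 3871). Pax3 and Pax7, which define dorsal neural tube, crest and muscle progenitors, had at most 2 tags in any library within 500 bp of their 5′ ends. Farther inside the gene, Pax7 had 39 tags over the mESC libraries and 17 over the mOPC libraries. Msx1 was thus the 1 member of the dorsal group with a promoter in use in mOPCs.

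None of the 6 Nkx genes was above 0.1 CPM in any mOPC library. In mESCs, Nkx2-9, a target of Sonic hedgehog in the floor of the neural tube (chromosome 12, 56611389 to 56613284, minus strand), had 5.83, 4.62 and 5.10 CPM, and with 0 tags in mOPCs it was at least 164-fold lower there (fitted log2 change -8.46 over the gene body). Nkx6-3, known from gut and hindbrain (chromosome 8, 23153269 to 23158948, plus strand), had 5.70, 5.94 and 5.32 CPM in mESCs and was at least 173-fold lower. Nkx2-5, the cardiac gene, had 5, 5 and 3 tags in mESCs and 1 in mOPCs, Nkx2-3 had 3, 3 and 1 and none, and Nkx6-1, of motor neuron and oligodendrocyte progenitors in the ventral spinal cord, had 3, 1 and 2 and none.

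The Iroquois genes lie in 2 clusters of 3, and in mOPCs a pair of genes in each cluster was in use while the remaining gene was not. In the chromosome 13 cluster, Irx1 (chromosome 13, 71957921 to 71963723, minus strand) had 0.501, 0.540 and 0.488 CPM in mESCs and 18.8, 22.6 and 27.7 CPM in mOPCs, a log2 change of 5.47 ± 0.193. Irx2 (chromosome 13, 72628820 to 72634198, plus strand) was already in use in mESCs, at 1.90, 2.16 and 1.36 CPM, and had 6.29, 6.31 and 5.69 CPM in mOPCs (log2 change 1.71 ± 0.174, or 0.65 over the gene body). The third gene, Irx4, known from the heart ventricle, had 7, 3 and 4 tags in mESCs and 1, 0 and 1 in mOPCs. In the chromosome 8 cluster, Irx3 (chromosome 8, 91798525 to 91802067, minus strand) had 0.792, 0.540 and 0.760 CPM in mESCs and 13.6, 13.5 and 13.8 CPM in mOPCs (log2 change 4.20 ± 0.182, or 3.03 with tags within 100 bp). Irx5 (chromosome 8, 92357625 to 92376286, plus strand) had 0.158, 0 and 0.0543 CPM and 15.0, 13.5 and 15.9 CPM, a log2 change of 7.18 ± 0.269. The first mESC library held 6 of its 7 mESC tags, and the value was 8.78 without it, 5.99 with tags within 100 bp and 6.16 over the gene body. The third gene, Irx6, had 2 tags over the mESC libraries and 1 over the mOPC libraries. Irx3 and Irx5 were at similar levels in mOPCs, where the ranges of their libraries overlap, while Irx1 lay above both in all 3 libraries.

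The Meis genes were, with Msx1, the 4 highest of the 53 in mOPCs. Meis1 (chromosome 11, 18879817 to 19018985, minus strand) had 5.91, 5.40 and 4.23 CPM in mESCs and 49.1, 55.3 and 47.9 CPM in mOPCs, a log2 change of 3.23 ± 0.115. Meis3 (chromosome 7, 16175090 to 16186504, plus strand) had 3.59, 2.76 and 2.93 CPM and 34.2, 27.7 and 31.0 CPM, with a log2 change of 3.25 ± 0.131. Meis1 and Meis3 were thus in use in both lines and rose by similar factors, 9.41-fold and 9.50-fold, a difference that was not tested. Meis2 (chromosome 2, 115863064 to 116065839, minus strand) started lower, at 0.264, 0.420 and 0.543 CPM in mESCs, and reached 36.5, 39.1 and 37.0 CPM in mOPCs, a log2 change of 6.61 ± 0.177, or 97.5-fold. Its value was 5.97 with tags within 1000 bp and 4.69 over the gene body. The order of the means in mOPCs was Meis1, Msx1, Meis2 and Meis3. Meis1 lay above the other three in every library, the libraries of Msx1 and Meis2 overlapped, and Meis3 lay below both in every library.

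Among the genes of mesoderm, pharynx and placodes, Six4 had the highest level, in mESCs. Six4, which acts with Eya proteins in muscle and sensory placodes (chromosome 12, 73099609 to 73113456, minus strand), was in use in both lines and higher in mESCs, at 25.6, 27.7 and 29.5 CPM against 5.02, 5.96 and 4.93 CPM in mOPCs (log2 change -2.40 ± 0.116). Of the 8 genes used in both lines, Six4 and En2 were the 2 with a lower level in mOPCs. With a window of 100 bp En2 turned, and Pax6 moved to -0.04. Six5 (chromosome 7, 19094594 to 19098549, plus strand), in contrast, had 2.43, 3.12 and 2.77 CPM in mESCs and 9.53, 9.15 and 10.9 CPM in mOPCs (log2 change 1.84 ± 0.151). Starts upstream of the annotated 5′ end made up 73.8% of the Six5 tags in the mESC libraries and 88.7% in the mOPC libraries. With tags within 100 bp the change was 0.50 (edgeR, adjusted p = 0.132) and over the gene body 0.52 (edgeR, adjusted p = 0.0567). Pax9, of pharyngeal pouches, teeth and sclerotome (chromosome 12, 56691767 to 56712822, plus strand), was used in mOPCs only, at 6.75, 8.95 and 9.55 CPM against 0.211, 0.300 and 0.108 CPM in mESCs (log2 change 5.31 ± 0.258). Its partner in the sclerotome, Pax1, had 1 tag in each line. Six2, of nephron progenitors, had 2, 1 and 2 tags in mESCs and 7, 22 and 25 in mOPCs, and the libraries of the lines did not overlap.

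By textbook region, most of the mOPC signal lay in the Iroquois and Meis genes, whose domains are broad. These 9 genes summed to 13.3, 12.0 and 10.6 CPM in mESCs and to 174, 178 and 179 CPM in mOPCs. In use were 7 of the 9 in mOPCs and 3 in mESCs, where 52.7% and 57.0% of all protein-coding genes were. The 15 genes of anterior head, eye and forebrain summed to 16.6, 16.0 and 15.7 CPM in mESCs, most of it Otx2, and to 33.4, 36.1 and 34.7 CPM in mOPCs, most of it Emx2, Otx1 and Lhx2. The 6 genes of the midbrain and hindbrain border summed to 47.9, 42.2 and 39.2 CPM in mESCs, most of it Gbx2, which the paper lists as an mESC marker. In mOPCs these 6 genes summed to 9.71, 8.46 and 7.45 CPM, all but a few tags of it Pax2 and En2. The 5 dorsal genes summed to 7.21, 6.84 and 5.59 CPM in mESCs and to 36.3, 44.4 and 46.6 CPM in mOPCs, nearly all of it Msx1. The 8 ventral and spinal genes summed to 8.39, 7.26 and 8.41 CPM in mESCs and to 8.53, 9.71 and 8.77 CPM in mOPCs, from different genes: Nkx2-9 and Gbx1 held most of the mESC tags, and Lhx1 and Lhx9 nearly all of the mOPC tags. The 10 genes of mesoderm, pharynx, placode and gut summed to 35.5, 38.5 and 39.3 CPM in mESCs, most of it Six4, and to 21.8, 24.8 and 26.0 CPM in mOPCs. In each group a few genes made up the sum. In mOPCs, used promoters of forebrain and eye (Emx2, Lhx2, Otx1, Dlx2, Pax6) and of midbrain and hindbrain (Pax2, En2) stood side by side. Beside them stood those of broad neural domains (Irx and Meis genes), of dorsal neural tube and crest (Msx1) and of spinal neurons (Lhx1, Lhx9). Promoters of mesoderm, pharynx and placodes (Pax9, Six4, Six5) were in use as well. With each gene placed in 1 group, the used promoters did not single out 1 region. That reading depends on the grouping, since Pax2, Lhx1 and Lhx9, among others, also act at the other sites named above. Pax6, En2, Irx2, Meis1, Meis3, Msx1, Six4 and Six5 were in use in mESCs too, so their use is not particular to mOPCs. For Pax6 and En2 the direction of the change also depended on the window.

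**Figure D3:**
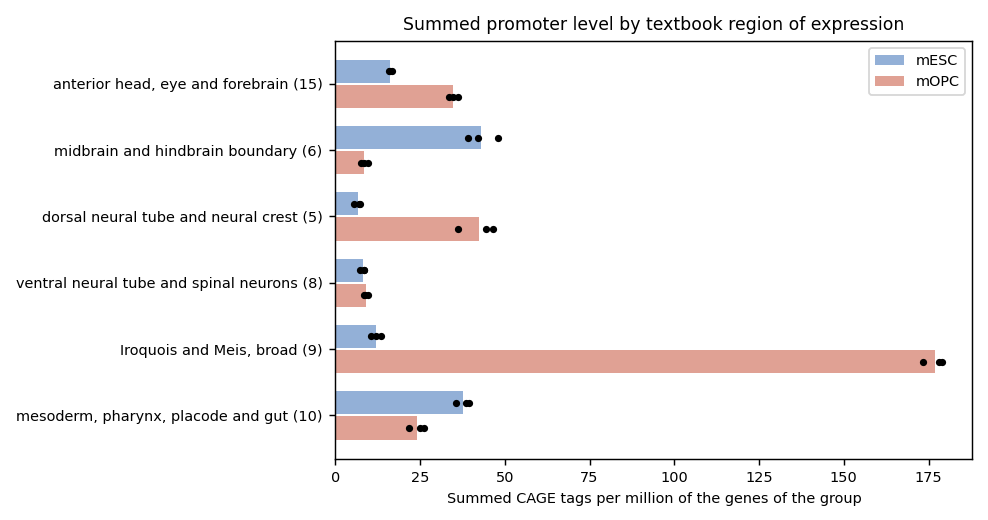
Summed promoter level of the genes of 6 textbook regions, with the number of genes in brackets, in CPM. Bars are means of 3 libraries (mESC blue, mOPC red) and points the libraries; the Iroquois and Meis genes reach 174 to 179 in mOPCs against 10.6 to 13.3 in mESCs.

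Of the 53 genes, 14 had at least 20 tags in both lines. In 9 of the 14 the most used position was the same in mESCs and mOPCs (Dlx2, En2, Irx1, Irx3, Lhx1, Lhx9, Meis1, Msx1 and Six4), and in a further 2, Irx2 and Meis3, it lay 19 and 20 bp away. For Six5, Pax6 and Meis2 the most used positions of the lines lay 335, 885 and 6703 bp apart. The most used mESC position of Meis2 held only 2 of its 27 tags. Msx1 started sharply: a single position took 38.1% of its mESC tags and 39.1% of its mOPC tags, although its level differed 24.5-fold. For Lhx1 the position taken most often held 52.2% of the mESC tags and 51.2% of the mOPC tags.

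Where a gene has several annotated start regions, numbered here from its 5′ end, the lines did not always use the same ones. For Lhx9, the upstream region held 35.7, 50.0 and 61.5% of the tags in the mESC libraries and none in the mOPC libraries, where all 378 tags fell in the second region. These shares rest on few tags in mESCs, 18 in each of the 2 regions over all libraries. For Pax6, the first region held 13.5, 20.8 and 27.3% in mESCs, 18 tags in all, and none of 205 tags in mOPCs. The fourth region was the main one in both lines, with 76.9, 79.2 and 72.7% in mESCs and 90.3, 96.2 and 97.9% in mOPCs. For Lhx2, regions 1 and 3 were used nearly alike in mOPCs, with 54.5, 55.2 and 53.7% and 42.6, 43.5 and 44.3%, while 14 of the 15 mESC tags lay in region 3. Emx2 had 84.5, 86.9 and 84.2% of its mOPC tags in the first region and most of its 19 mESC tags in the second. Otx2 tags in mESCs were spread over 4 regions, with 70.2, 76.7 and 70.8% in region 4 and 23.2, 14.7 and 23.0% in region 3. No test was run on these shares, and the differences for Lhx9, Pax6 and Emx2 are given as a description.

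**Figure D4:**
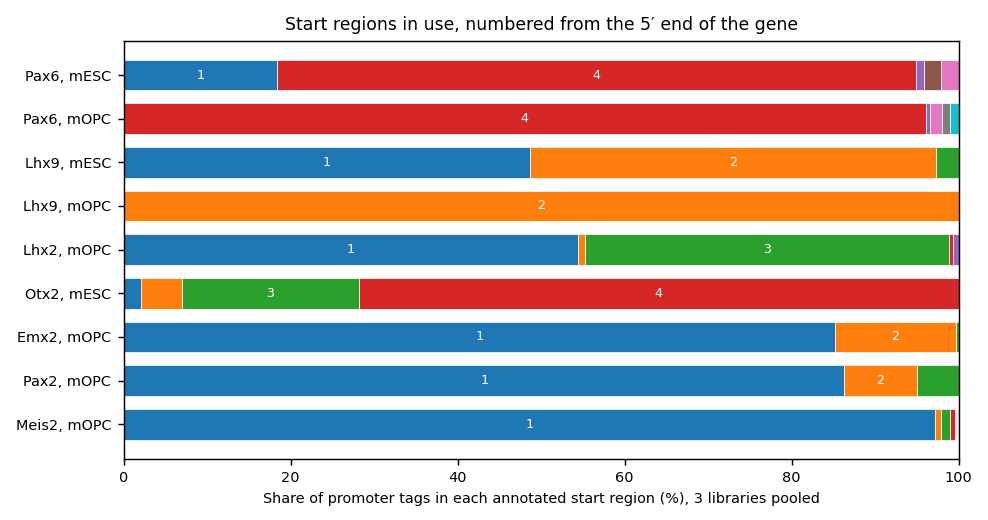
Share of the promoter tags of a gene (percent, horizontal) that fell in each of its annotated start regions, with the 3 libraries of a line pooled and regions numbered from the 5′ end of the gene. The first region of Lhx9 and of Pax6 holds 48.6% and 18.4% of the tags in mESCs and none in mOPCs.

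Several of these genes have an RNA gene annotated on the other strand, and CAGE tells the strands apart. Emx2os (chromosome 19, 59425104 to 59458635, minus strand) had 0.0264, 0 and 0.163 CPM in mESCs and 46.2, 48.0 and 45.9 CPM in mOPCs, above Emx2 itself in every mOPC library, with a log2 change of 9.59 ± 0.231. Lhx1os had 0.0792, 0.0600 and 0 CPM in mESCs and 2.96, 2.84 and 2.91 CPM in mOPCs (log2 change 5.59 ± 0.401), and Irx3os 0.369, 0.480 and 0.271 CPM and 2.65, 3.09 and 3.10 CPM (log2 change 2.96 ± 0.270). Otx2os1 had 1.00, 0.780 and 0.543 CPM in mESCs and, like Otx2, no tag in mOPCs. In each of these 4 pairs the RNA gene was higher in the same line as its neighbour. The other annotated partners were at the floor: Six3os1 had 7 tags in mESCs and none in mOPCs, Dlx4os 3 tags and none, Dlx1as 2 tags in each line, Pax6os1 1 tag in mOPCs, and Dlx6os1 and Dlx6os2 none in any library.

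**Figure D5:**
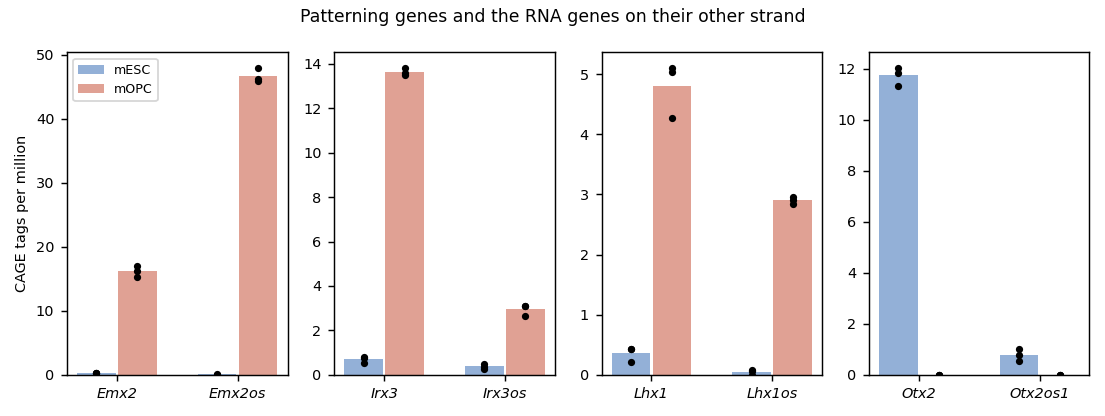
Level of 4 patterning genes and of the RNA gene on their other strand, in CPM, with bars for the mean of 3 libraries (mESC blue, mOPC red) and points for the libraries. Emx2os lies above Emx2 in mOPCs, and Otx2 and Otx2os1 are both at 0 there.

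Of 48 partner genes, that is cofactors and further homeobox genes of related families, 47 were found in the annotation and 32 tested. Of these, 19 were called higher in mOPCs and 10 higher in mESCs, where 42.1% and 48.9% of all 18490 tested genes were. Since 91.0% of all tested genes were called in either direction, these counts by themselves say little about the partner genes. Their median log2 change was 0.78 against -0.19 over all tested genes. The 6 with the highest mean level were Tle4, Tgif1, Pknox2, Tle2, Ldb1 and Tle1. Pknox2, a relative of the Meis proteins, had 1.61, 1.32 and 1.68 CPM in mESCs and 205, 204 and 214 CPM in mOPCs (log2 change 7.03 ± 0.125). Tle2, a Groucho corepressor, had 2.43, 2.46 and 2.01 CPM and 149, 155 and 139.9 CPM (log2 change 5.96 ± 0.120), and Tle1 22.4, 20.6 and 19.1 CPM and 96.1, 92.4 and 88.5 CPM (log2 change 2.12 ± 0.0931). Tgif1, which competes for Meis sites, ran the other way with 262, 262 and 244 CPM in mESCs and 45.9, 52.3 and 55.3 CPM in mOPCs (log2 change -2.34 ± 0.0879), as did Tle4 with 333, 313 and 342 CPM and 89.5, 95.5 and 89.3 CPM (log2 change -1.87 ± 0.0841). Ldb1, the cofactor that LIM homeodomain proteins share, had 105, 97.3 and 97.0 CPM in mESCs and 112, 97.7 and 111 CPM in mOPCs. Its log2 change of 0.07 ± 0.0842 did not pass the threshold (edgeR, adjusted p = 0.405).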

How the data were processed

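CAGE libraries were made from nuclear RNA of R08 mESCs and oli-neu mOPCs, 3 per line. The deposited values are raw counts: the authors aligned the tags uniquely to mm10 and counted the 5′ ends per position, strand and library, without normalization. The paper's methods name bowtie, while the submitters' processing notes list CASAVA 1.8 and BWA 0.5.9. Tags were summed within 500 bp of all transcript 5′ ends of each gene in GENCODE vM21, a tag in the windows of several genes counting for each, and divided by the library total (CPM).

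All 55450 genes entered edgeR 4.0.16 in R 4.3.3 (quasi-likelihood test, robust fit, TMM, filterByExpr, Benjamini-Hochberg threshold 0.05), and 18490 passed the filter. Fold changes are mOPCs over mESCs, and their SE was derived from the F statistic. Where a line had few tags, that SE can be smaller than the counting error. On counts simulated for this comparison, with 18011 genes passing the filter, 193 of 200 planted log2 changes of 2 were recovered with 4 false calls. Only the 200 planted genes changed there, while 91.0% of all tested genes were called in the data. The simulation therefore cannot show how scaling and test perform under so broad a change. Where a line had 0 tags, the fold is a bound from 3 tags over its pooled libraries, and with 1 to 3 tags a ratio of pooled tags with a 95% exact binomial interval. Bounds and intervals cover counting error alone, because no molecular identifiers were used. Counting and exact tests used Python 3.11.15 (scipy 1.17.1, numpy 2.4.6, pandas 2.3.3), and figures matplotlib 3.10.9.

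The genes, lists and limits were chosen with earlier results of these data known. Values per library are given for genes in use in at least 1 line and for the 5 highest of the others that passed the test, and the rest by counts. Genes of the second kind are Msx3, Dlx6, Emx1, Dlx3 and Six6. Tag counts given for further genes were added after their values were seen. Alternatives were another scaling, filter, tool, window or limit, tags of shared windows left out, thinned libraries, DESeq2 1.42.0, a replicate block and each library left out.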

Additional observations from a re-analysis of the deposited data

Results flagged for a closer look

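For 4 genes, tags lay inside the gene on its strand but more than 500 bp from every annotated 5′ end, with at least 20 such tags in every library of a line while the promoter counted above was below 1 CPM. Such tags enter no comparison of promoters. Lhx6 had 229 of them over the mESC libraries, and 214 of these lay within a stretch of 201 bp around position 36091403 of chromosome 2, 2870 bp from the nearest annotated 5′ end. Near its annotated 5′ ends it had 2 tags in all, and in mOPCs the whole gene held 3 tags. Pax8 had 129 in mESCs, of which 62 lay within a stretch of 201 bp. Pax5 had 147 in mESCs and 143 in mOPCs, and 58 of the latter lay within a stretch of 201 bp. Meis2 had 128 in mESCs, spread over 99 positions. These libraries include no control for tags of this kind.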

How the results depend on the processing

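The 31 genes named by the rule were refitted under 16 alternatives, which gave 485 log2 changes, while in 11 cases the gene had too few tags to be tested and lost its call. Of the 485, 469 kept their direction and their side of the threshold, 14 lost the call and 2 reversed, both with tags within 100 bp (Pax6 at -0.04 and En2 at 1.17). The 14 lost calls were those of En2, Pax6 and Six5. No longer tested were Msx2, Gbx1, Dlx3 and Dlx6 with tags within 100 bp, Msx3, Dlx3 and Dlx6 over the gene body, Dlx3, Dlx6 and Six6 with thinned libraries, and Dlx3 without mESC replicate 1. The most used mESC starts of Msx2 and Gbx1 lay 237 and 465 bp from the annotated 5′ end. Values that moved in size by over 1.5 times stand beside most of the genes above. Fitted values of genes with 0 or 1 tags in a line depend on the prior count. Without mOPC replicate 3, which held their 1 mOPC tag, the log2 change of Msx3 went from -6.10 to -7.70 and Six6 from -5.51 to -7.11, Dlx6 from 5.55 to 7.65 without mESC replicate 3, and Pax2 from 8.22 to 10.13 without mESC replicate 1. That of Gbx2 was -10.49 with tags within 100 bp, and that of Otx2 -9.56 there and -9.83 over the gene body, from -11.35. Genes called higher in mESCs numbered 14, but 8 with tags within 100 bp and 9 with libraries thinned to the smallest; those called higher in mOPCs stayed between 17 and 22 from a main count of 19. Without 1 library, 19 to 20 were higher in mOPCs and 10 to 15 higher in mESCs. Promoters in use in mESCs were 14, but 7 from 3 CPM and 9 with tags within 100 bp. Silent promoters in mESCs were 11, but 4 under 0.05 CPM, 19 under 0.2 CPM, 19 with tags within 100 bp and 19 by the mean. In mOPCs the counts in use and silent stayed within 1.5 times the main counts. The causes were not tested. Libraries with the same number in both lines share only that number (correlations of their deviations 0.0219, 0.102 and 0.0233); with the replicate number as a block, 19 genes were higher in mOPCs and 13 higher in mESCs, and En2 lost its call. Depth limits all genes below about 0.1 CPM.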

Other observations

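In mOPCs, Meis2 and Pax2 also carried many tags inside the gene away from annotated 5′ ends. Meis2 had 2584 such tags over 1784 positions, beside 3443 near its 5′ ends, and Pax2 had 879 over 566 positions, beside 497. For Pax2 the densest 201 bp held 140 tags and lay 587 bp from an annotated 5′ end, just outside the window. Pax2 had 9.44, 9.85 and 9.48 CPM of such tags in the mOPC libraries, more than the 6.57, 5.41 and 4.81 CPM counted at its promoter.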
